A study of Mus musculus with 219 samples.

Results

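The Rab GTPase genes were taken as every gene whose symbol is Rab followed by a number, with at most a letter and a further digit after it. This gave 59 of the 32285 genes counted, all annotated as protein coding. The rule used names and no measured value, but the family was chosen with earlier results of these data known. Their RNA was followed in single mouse embryos made by intracytoplasmic sperm injection (ICSI), in which a sperm is placed into the oocyte through a needle. Oocytes of B6C3F1 females received CD1 sperm at a site opposite the meiotic spindle (contralateral), on the spindle's side (ipsilateral, which the labels call isolateral) or at the equator. All groups share this cross and the injection, and no group compared here was fertilized without it. The 2-cell embryos were split into their sister blastomeres, which were sequenced singly, or each sister was cultured alone into a twin blastocyst, or the embryo was left whole and became an intact blastocyst. The embryo was the replicate, so the counts of both sisters, or of both twins, were added. The groups held 21 contralateral, 21 ipsilateral and 13 equatorial 2-cell embryos, 6, 7 and 6 twin pairs, and 11, 8 and 12 intact blastocysts. The labels list equally many blastomeres for each site. Counts were present for 46 contralateral, 48 ipsilateral and 31 equatorial blastomeres, of which 42, 42 and 26 were used. Losses were thus largest in the equatorial group, and their part in the differences between sites was not tested. A twin blastocyst starts from a single blastomere, and every blastocyst library mixes several cell types, so fewer cells of a type and less RNA per cell cannot be told apart.

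Rab proteins are small GTPases that sit on the membranes of vesicles and organelles. In the GTP-bound state each recruits effectors (motors, tethers, sorting proteins) that move a vesicle or bring it to its target. Exchange factors load the GTP, activating proteins promote its hydrolysis, and escort proteins together with a prenyl transferase prepare the Rab for its membrane. In oocytes Rab3a and Rab27a are known for the transport and release of cortical granules, and in epithelia such as the trophectoderm of the blastocyst apical and junctional traffic uses Rab8, Rab11 and Rab13 proteins.

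The median library held 1340425 counts in the 110 blastomeres (range 360474 to 2100561), 1093478 in 38 twins (713410 to 2161062) and 705837 in 31 intact blastocysts (234099 to 1254428). Intact blastocysts were the shallowest group, and 7 of them had fewer than 10000 detected genes and stood apart from the rest. The stage labels were checked on marker lists, in CPM (counts scaled to a common library total) summed over each list. The 7 oocyte genes summed to 3879 ± 391 CPM (SD, n = 55) in 2-cell embryos, 560.0 ± 84.4 in twins (n = 19) and 96.5 ± 104 in intact blastocysts (n = 31). The 8 trophectoderm genes summed to 111.03 ± 38.4, 3621 ± 223 and 4436 ± 963 CPM. A list of 6 cumulus cell genes summed to 80.1 ± 28.05, 146 ± 35.3 and 80.9 ± 47.7 CPM. Its gene Ptx3 had no count in any twin or intact blastocyst, so the sums there come from the other genes of the list.

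Summed in each embryo, the 59 Rab genes held 4935 ± 285 CPM in 2-cell embryos, 4268 ± 184 in twins and 4263 ± 661 in intact blastocysts. The intact blastocysts spread from 2755 to 6136 CPM, which covers the full range of both other groups. At 2 cells 58 members had a count, and Rab37 had none. In the twins 57 had a count, with Rab3c and Rab27b at 0, and in intact blastocysts all 59 had a count. A count in every embryo was found for 31, 40 and 21 members in these groups.

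Levels of different genes were compared per length, in TPM, which divides each count by the gene's exonic length before scaling to the library. At 2 cells the highest mean was that of Rab7, which directs late endosomes to lysosomes, at 533 ± 82.01 TPM. Rab2a, which acts between the endoplasmic reticulum and the Golgi, followed at 518 ± 87.3 TPM, so these means differed by less than 1 SD. Rab11a of the recycling endosome stood at 343 ± 62.7, Rab10, which serves exocytic and basolateral transport, at 311 ± 45.3 and the Golgi gene Rab6a at 291 ± 66.001 TPM. In intact blastocysts the order was Rab11a at 392 ± 105.3, Rab20, a gene of endosomes and phagosomes, at 364 ± 172, Rab2a at 354 ± 101.8, Rab7 at 302 ± 119.7 and Rab1a, which acts from the endoplasmic reticulum to the Golgi, at 278 ± 77.8 TPM. All neighbours among these 5 differed by less than the SD of either. Some counts are uncertain by sequence. Exons of Rab24 (62.4% of their bases), Rab20 (25.6%), Rab6a (18.99%), Rab39b (18.6%) and Rab26 (10.3%) overlap another gene, and the reads were counted without strand. Stretches of 100 bases that also occur in another gene made up 7.91% of Rab7 (its pseudogene Rab7-ps1), 7.11% of Rab11b and 6.14% of Rab5b, and less of the other members.

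The first question was whether Rab transcripts at 2 cells differ by injection site. In contralateral embryos Rab11a, Rab7, Rab18, Rab9, Rab8b and Rab2a were higher than in equatorial embryos, and Rab3d and Rab40c were lower. These are 8 of the 45 members that passed the filter on low counts (14 did not), or 17.8%, where 13.2% of all 13141 genes tested were called (7.12% higher and 6.06% lower). Calls are those with an adjusted p under 0.05 in edgeR's quasi-likelihood test with Benjamini-Hochberg adjustment over all genes, and plate was a term. By role, 2 of 8 late endosome and lysosome members rose (Rab7, Rab9), 2 of 9 recycling and apical members (Rab11a, Rab8b) and 2 of 11 secretory and Golgi members (Rab18, Rab2a). None of 10 early endosome members passed, and 1 of 4 regulated secretion members fell (Rab3d).

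Rab11a had the smallest p. Its lowest, median and highest CPM were 224, 361 and 474 in contralateral, 215, 303 and 410.5 in ipsilateral and 177, 245 and 317 in equatorial embryos. The groups overlapped, but the contralateral median lay above every equatorial embryo. The contralateral level was 1.47-fold the equatorial level (log2 0.55 ± 0.09 SE, adjusted p = 1.24e-05). Rab7 spanned 365, 451 and 579 CPM (in the same order) in contralateral, 384, 440.3 and 533 in ipsilateral and 242, 350.1 and 465 in equatorial embryos, and was 1.32-fold higher in contralateral than in equatorial embryos (log2 0.40 ± 0.07, adjusted p = 0.000105). The equatorial median lay below every contralateral and ipsilateral embryo.

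Rab9, which is known for return traffic from late endosomes to the Golgi, spanned 42.9, 120.8 and 176 CPM in contralateral, 67.3, 117.5 and 178 in ipsilateral and 3.83, 53.7 and 115.9 in equatorial embryos. The contralateral rise was log2 1.03 ± 0.23 (adjusted p = 0.00106), and the medians of both polar groups lay above every equatorial embryo. Rab18, tied to lipid droplets and the endoplasmic reticulum, spanned 97.01, 214 and 268, then 148, 203 and 275, then 65.2, 126.8 and 271 CPM in these groups (contralateral log2 0.62 ± 0.13, adjusted p = 0.000605), and a single equatorial embryo reached the top of the polar range.

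Rab3d, whose protein sits on secretory granules, went the other way. It spanned 64.8, 163 and 315 CPM in contralateral, 99.6, 174 and 247 in ipsilateral and 166, 242 and 402 in equatorial embryos (contralateral log2 -0.68 ± 0.14, adjusted p = 0.000382). The lowest equatorial embryo lay above the contralateral median. Rab40c, a Rab with a SOCS box that joins a ubiquitin ligase, was low throughout, at 0, 8.68 and 27.5 CPM in contralateral, 0.599, 16.04 and 67.4 in ipsilateral and 0, 37.6 and 85.1 in equatorial embryos (contralateral log2 -1.80 ± 0.46, adjusted p = 0.00504). Rab8b, of exocytic traffic, and Rab2a rose by less, with contralateral medians of 204 and 366 CPM and equatorial medians of 155 and 294 CPM (log2 0.44 ± 0.10 and 0.27 ± 0.09, adjusted p = 0.00195 and 0.0252). The Rab2a call did not hold in embryos with a mitochondrial share of at most 2% (adjusted p = 0.0599) or with the rank-sum test on TPM (adjusted p = 0.341). With that test 12 members passed, 5 higher and 7 lower, and 1979 of 13137 genes, 774 higher and 1205 lower.

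**Figure D1:**
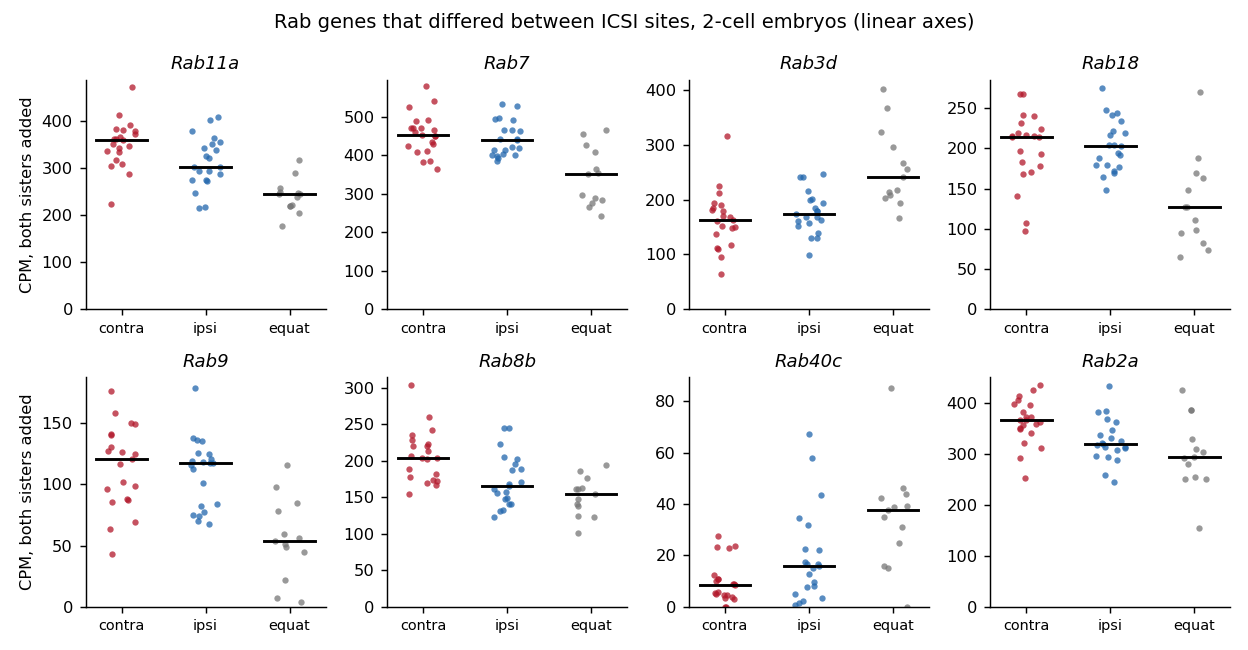
Each point is a 2-cell embryo (counts of both sisters added) and each bar the group median, in CPM on linear axes, for the 8 Rab genes that passed between contralateral and equatorial embryos. For Rab11a the medians step from 361 over 303 to 245 CPM, while Rab3d is highest in the equatorial group with a median of 242 CPM.

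Ipsilateral embryos differed from equatorial embryos in 5 of 45 members, 11.1% where 6.65% of all genes were called (3.43% higher and 3.22% lower). Rab18 (log2 0.56 ± 0.13), Rab7 (0.31 ± 0.07), Rab9 (0.98 ± 0.23) and Rab11a (0.32 ± 0.09) were higher and Rab3d was lower (-0.57 ± 0.14), with adjusted p between 0.00470 and 0.0155 in edgeR's test. All 5 are among the 8 of the contralateral comparison (62.5% of those), but both comparisons share the same equatorial embryos. The equatorial blastomeres were also the shallowest, with a median of 1108741 counts and 11514 detected genes against 1530273 and 12164 in the ipsilateral group. With depth and detected genes as covariates, 0 members passed in the ipsilateral comparison (adjusted p from 0.0768 to 0.217 for these 5 in edgeR's test). Over all genes 61 then passed, 60 higher and 1 lower in ipsilateral embryos. In the contralateral comparison 9 members (6 higher, 3 lower) and 1193 genes (724 higher, 469 lower) passed. The fitted changes of the 5 in the ipsilateral comparison were then 0.46 for Rab18, 0.29 for Rab7, 0.93 for Rab9, 0.36 for Rab11a and -0.43 for Rab3d. Within plate 1 alone 9 members passed in the contralateral and 8 in the ipsilateral comparison, beside 2176 of 12864 genes and 1108 of 12864 genes. The oocyte marker sum was 4052 ± 397 CPM in contralateral, 3826 ± 307 in ipsilateral and 3684 ± 411 in equatorial embryos, and its part in these differences was not tested.

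Between the polar sites themselves no Rab gene passed in edgeR's test, and neither did any other gene that passed the filter on low counts (0% of 13141). At an unadjusted p under 0.05 there were 6 members and 555 genes, and DESeq2 called 0 members. Without the filter on low counts edgeR called 1577 of 24964 genes, 906 higher and 671 lower in contralateral embryos, among them 1 of 58 members. The smallest unadjusted p belonged to Rab11a (log2 0.24 higher in contralateral embryos, 95% interval 0.08 to 0.39), Rab8b (0.27, 0.08 to 0.45) and Rab21, which is known for integrin traffic (0.28, 0.07 to 0.49), each with an adjusted p of 1.

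Regulator lists are read beside the 13.2% and 6.65% of all genes called in these comparisons. With depth and detected genes as covariates, 60 genes were called higher and 1 lower in ipsilateral embryos. At most 1 of the ipsilateral falls given below (Rph3a, Madd and Tbc1d22b) can then have held. Among the genes that switch Rabs on and off, a list of 14 TRAPP subunits (exchange factors of Rab1 and its relatives, and tethers at the Golgi) held 2 that rose and 1 that fell between equatorial and contralateral embryos. Trappc2 had a median of 331 CPM in contralateral, 271 in ipsilateral and 137 in equatorial embryos (contralateral log2 1.24 ± 0.16, adjusted p = 3.94e-07), and Trappc1 medians of 156, 152 and 103 CPM (0.68 ± 0.17, adjusted p = 0.00446). Trappc10 was lower in contralateral embryos (-0.57 ± 0.18). In the ipsilateral comparison 2 of 14 passed, again Trappc2 (0.91 ± 0.15) and Trappc1 (0.66 ± 0.17). Of 33 effectors tested a single gene passed in either comparison, Rph3a, which encodes rabphilin, a Rab3 and Rab27 effector. Its lowest, median and highest CPM were 109.2, 176 and 299 in contralateral, 134, 189 and 328 in ipsilateral and 188, 286 and 347 in equatorial embryos (log2 -0.53 ± 0.12 and -0.49 ± 0.12, adjusted p = 0.00110 and 0.00762).

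Exchange factors outside TRAPP gave 2 rises and 1 fall of 25 tested in contralateral embryos (Dennd6a 0.49 ± 0.11, Rin3 0.64 ± 0.19, Dennd5a -0.60 ± 0.18), and 1 rise and 1 fall in ipsilateral embryos. The latter fall was in Madd, an exchange factor of Rab3, with a median of 17.7 CPM in ipsilateral and 43.02 in equatorial embryos (-1.06 ± 0.32, adjusted p = 0.0317). Activating proteins gave 2 rises and 3 falls of 35 tested in contralateral embryos, among them Tbc1d15, an activating protein of Rab7 (0.49 ± 0.11), Tbc1d19 (0.93 ± 0.29) and Tbc1d22b (-0.52 ± 0.16), and in ipsilateral embryos a single fall, in Tbc1d22b (-0.55 ± 0.17). Of 8 genes for membrane delivery of Rabs, Rabif rose in contralateral embryos (0.59 ± 0.18) and none passed in ipsilateral embryos.

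The second question was how well sister blastomeres agree. For each gene a counting dispersion index was computed over the 55 pairs, which is 1 where sisters differ by counting error alone. Over the 43 members with a mean of at least 5 counts the index had a median of 15.3 and ran from 6.73 to 30.9, and over 11964 genes of that depth the median was 15.3. Reads without molecular identifiers are not independent molecules, and the counting intervals here cover counting error only. An index above 1 can hold technical noise as well as differences between sisters, and these were not separated. The index was highest for Rab39 (30.9), Rab20 (29.4) and Rab29 (27.1), the last a gene of Golgi and lysosomal traffic. It was lowest for Rab5c of the early endosome (6.73), Rab1b (6.84) and Rab7 (8.56). The index can also rise with the count of a gene, so its order does not rank the relative agreement of sisters. In the median pair, sisters differed in Rab7 by 0.19 on the log2(CPM + 1) scale and in Rab39 by 1.196.

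Sisters were compared with blastomeres of other embryos of the same site and plate (1272 pairs). The median member differed by 0.68 on the log2(CPM + 1) scale between sisters and by 0.80 between non-sisters. Sisters were closer than non-sisters in 35 of 43 members (81.4%), where 72.03% of 11960 genes had that order. Of members picked after their values were seen, Rab5a had 0.41 between sisters and 0.66 between non-sisters, while Rab13 had 1.96 between sisters and 1.43 between non-sisters. These shares are descriptions, since pairs of non-sisters reuse the same blastomeres. For the 19 twin pairs the median index was 6.87 over 41 members and 6.63 over all genes. Twins were closer than non-twins in 24 of 41 members (58.5%, against 61.1% of all genes).

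**Figure D2:**
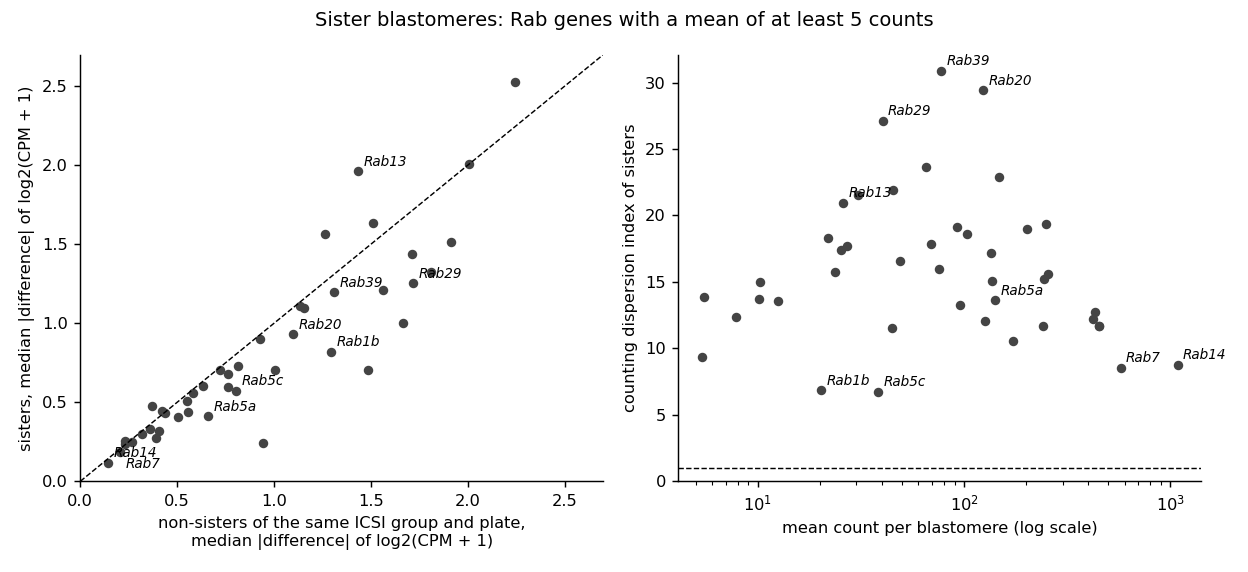
Left, for 43 Rab genes, the median absolute difference between sister blastomeres against that between non-sisters of the same ICSI group and plate, on the log2(CPM + 1) scale, with the dashed line at equality. Right, the counting dispersion index against the mean count per blastomere on a log axis, with the dashed line at 1, and all members lie between 6.73 and 30.9.

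The sister distance was then compared between injection sites with limma. No member passed in any of the 3 contrasts (0 of 45). Over all genes 34 (0.259%, all lower) passed between contralateral and equatorial embryos, 29 (0.221%, with 0.00761% higher and 0.213% lower) between ipsilateral and equatorial embryos and 0 between the polar sites. At an unadjusted p under 0.05 there were 7, 5 and 4 of the 45 members, beside 10.3%, 11.8% and 4.81% of all genes. The all-gene counts depended on the setting, at 4 and 2 with the lower total of the pair as a covariate, 16 and 4 on plate 1 alone and 0 and 1 with all sister pairs (contralateral and ipsilateral against equatorial). The smallest p among members was that of Rab9 in the ipsilateral contrast, with a difference of -0.96 from equatorial embryos (95% interval -1.498 to -0.43, adjusted p = 0.0798). For Rab18 the median sister difference was 0.20 in contralateral, 0.32 in ipsilateral and 0.75 in equatorial embryos (adjusted p = 0.123 and 0.0957 against the equatorial group in limma).

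The third question was how the family changes from the 2-cell embryo, which still carries oocyte transcripts, to the blastocyst. Of 52 members tested 40 differed, 15 higher and 25 lower in intact blastocysts, or 76.9% where 74.7% of all 15682 genes did (29.7% higher and 44.9% lower). Plate was a term and all blastocysts were set to the second plate. The fitted changes therefore compare blastocysts with the 13 2-cell embryos of that plate, whereas medians and ranges beside them cover all 55. Without the plate term 43 members were called (18 higher, 25 lower), beside 12994 of 15682 genes, 5349 higher and 7645 lower. The median log2 change was -0.63 over the members and -0.50 over all genes, and each value given here stands before that shift is taken off. Without TMM scaling the all-gene median was -0.22. None of the 40 members changed side when set against the all-gene median (0) or when TMM was left out (0).

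The members of regulated secretion, which dock and release granules, were mostly lower in blastocysts. Of 6 tested, 5 fell and none rose. The filter on low counts keeps a gene that passes it at a single stage. Rab3b and Rab3c passed through the 2-cell embryos alone, so their direction was set in advance. The same applies to members given below that are near 0 at 1 stage, such as Rab39, Rab38, Rab34, Rab19 and Rab17. Members sparse at both stages, such as Rab27b, were not tested. The 9 listed genes summed to 358 ± 84.9 CPM at 2 cells, 32.5 ± 11.7 in twins and 28.5 ± 15.4 in intact blastocysts. The 2-cell range of 189 to 618 CPM overlapped neither the twin range of 12.3 to 58.5 nor the intact range of 4.27 to 64.6 CPM. Rab3d went from a median of 179.6 (64.8 to 402) CPM at 2 cells to 7.08 (0 to 42.1) in intact blastocysts, a log2 change of -4.41 ± 0.28 (adjusted p = 5.38e-27), with no overlap between the stages. Rab3b, another Rab3 of secretory vesicles, went from 70.2 (18.3 to 165) to 0 (0 to 24.7) CPM, with 44 counts in 7 of 31 intact blastocysts (-5.73 ± 0.38). Rab27a went from 71.5 (15.9 to 120.8) to 8.003 (0 to 37.5) CPM (-3.13 ± 0.29) and Rab3a from 17.8 (0 to 40.7) to 1.03 (0 to 30.98) CPM (-2.58 ± 0.48).

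Rab3c, the last of the 5, was sparse already, with 374 counts in 27 of 55 2-cell embryos against 1 count in intact blastocysts (ratio of CPM 56.2, 95% counting interval 10.02 to 2224) and none in twins, where it was at least 36.9-fold lower with 3 counts over the group as the floor. DESeq2 did not call Rab3c (adjusted p = 0.0690). Rab27b, not tested, had 120 counts in 9 2-cell embryos (0.814 CPM over the group) and none in twins (at least 11.8-fold lower). In intact blastocysts it had 15 counts (0.678 CPM over the group), so its level there was near that at 2 cells.

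Of 35 effectors tested 27 were called, 9 higher and 18 lower, where 74.7% of all genes were called (29.7% higher and 44.9% lower). The 3 with the smallest p, picked by that value, are known to bind Rab3 or Rab27. Of these, Rph3a and Sytl2 passed the filter on low counts through the 2-cell embryos alone. Rph3a had 30647 counts in 2-cell embryos and 1 in intact blastocysts, with medians of 193 and 0 CPM. Sytl2 had 8476 counts and 1 count (medians 57.9 and 0 CPM), and Sytl4, which encodes granuphilin, went from a median of 306 to 0 CPM (log2 -6.997 ± 0.28).

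Of 8 late endosome and lysosome members 5 fell and 2 rose. Rab38 and Rab32, a related pair that serves melanosomes and other lysosome-related organelles, went from medians of 72.3 (12.1 to 221) and 49.9 (14.7 to 96.2) CPM to 0 (0 to 11.1) and 0 (0 to 36.9) CPM, with log2 changes of -7.22 ± 0.39 and -3.90 ± 0.45. The Rab38 ranges did not overlap. Rab38, and Rab34 given next, were near 0 in intact blastocysts, so the direction of both was set in advance. Rab34, known from macropinocytosis and cilia, went from 27.9 (0 to 89.2) to 0 (0 to 10.3) CPM (-4.63 ± 0.50). Rab7, first in rank at 2 cells, had a log2 change of -1.02 ± 0.14. Rab24, which is known from autophagy and shares most of its exon bases with Prelid1, rose from a median of 5.19 (0 to 35.05) to 59.6 (0 to 170.4) CPM (2.51 ± 0.61), and Rab9 rose by 0.71 ± 0.23. The Rab9 rise was called in 8 of 9 alternatives, over which its log2 change ran from 0.36 to 0.98.

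Among 13 secretory and Golgi members 3 rose and 7 fell. Rab39, which is linked to the Golgi and to autophagy, had a median of 48.2 (0 to 199) CPM at 2 cells, with 8484 counts in 54 of 55 embryos, and a single count in a single intact blastocyst, a ratio of CPM of 1274 (95% counting interval 229 to 50317). It was also the member with the highest sister index. Rab19 (-3.13 ± 0.90) and Rab43 (-1.82 ± 0.51) fell too. Rab1a rose from a median of 107.6 (38.1 to 202) to 377 (104 to 612) CPM (1.59 ± 0.17) and its close relative Rab1b from 12.8 (0.934 to 41.2) to 57.3 (12.02 to 151) CPM (1.73 ± 0.35). Rab6b, the form of Rab6 known from neurons, rose from 0 (0 to 10.4) to 17.001 (0 to 76.5) CPM (4.13 ± 0.995).

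Recycling and apical members split, with 6 higher and 4 lower of 11. Rab17, known for apical recycling in epithelia, had 7 counts in 2 of 55 2-cell embryos and a median of 18.4 (0 to 159.9) CPM in intact blastocysts, with counts in 28 of 31. In twins it was in all 19 pairs, at a median of 90.1 (48.6 to 190.3) CPM. The fitted change to intact blastocysts was log2 8.62 ± 0.89 (adjusted p = 2.14e-14). Rab13, of tight junctions, went from a median of 19.6 (1.15 to 40.6) to 89.8 (46.2 to 317) CPM (2.58 ± 0.32), the only tested member whose intact blastocysts all lay above every 2-cell embryo. Rab25, an epithelial relative of Rab11, rose from 0.884 (0 to 20.8) to 14.9 (0 to 156) CPM (2.26 ± 0.90), and Rab15, of the recycling endosome, from 0 (0 to 21.2) to 21.5 (0 to 99.2) CPM (3.15 ± 0.99). Rab11a itself was not called (0.01, 95% interval -0.21 to 0.24).

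In the early endosome list 2 of 10 rose and 4 fell. Rab14, which links Golgi and endosomes, fell from a median of 806 (684 to 965) to 409 (256 to 598) CPM (-1.37 ± 0.08) with no overlap. It alone held 16.5% of all Rab CPM at 2 cells, but CPM takes no account of its exonic length of 13589 bases. By TPM it was in rank 7 at 2 cells, with a mean of 198. Rab4b, of fast recycling, rose from 2.31 (0 to 30.2) to 18.9 (0 to 81.6) CPM (2.10 ± 0.77). Of the remaining members, Rab28, known from cilia, rose from 2.05 (0 to 13.01) to 27.7 (0 to 68.1) CPM (2.90 ± 0.70) and Rab40c by 2.34 ± 0.46. Ranges that do not overlap were found for 1 member in the higher and 3 in the lower direction (Rab14, Rab38, Rab3d), where 4.36% and 8% of all genes had such ranges. For Rab38, near 0 in intact blastocysts, the direction was set in advance. Rab37 had no count at 2 cells, 74 counts in twins (at least 83.3-fold higher, against 3 counts over the 2-cell group) and 7 in intact blastocysts (at least 15.5-fold).

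**Figure D3:**
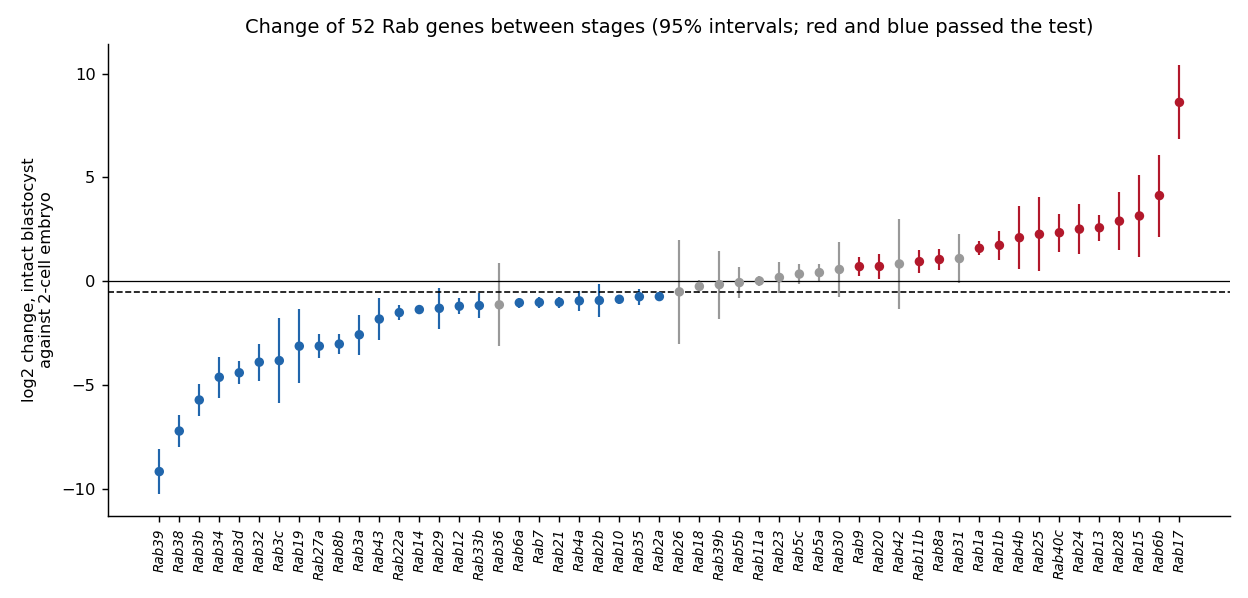
The fitted log2 change from 2-cell embryos (n = 55) to intact blastocysts (n = 31) of 52 Rab genes in rising order, with 95% intervals, coloured by whether the gene fell (25), rose (15) or did not pass. With plate as a term, the change is against the 13 2-cell embryos on the plate to which the blastocysts were set. The dashed line is the median of all genes at -0.50, and the values span -9.18 for Rab39 to 8.62 for Rab17.

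In the membrane delivery, exchange factor, activating protein and TRAPP lists, calls were no more frequent than the 74.7% over all genes. The membrane delivery list had 5 of 8 rise and none fall. Rabggtb and Rabggta, the subunits of the prenyl transferase that lipid-modifies Rabs, went from medians of 7.96 and 3.30 CPM to 224 and 37.9 CPM (log2 3.81 ± 0.54 and 2.65 ± 0.59). Exchange factors gave 5 rises and 10 falls of 28, with the smallest p for Ric1 (-3.07 ± 0.19), Dennd6a (-3.23 ± 0.20) and Ccz1 (-1.40 ± 0.12). Activating proteins gave 9 rises and 17 falls of 40, led by Evi5 (-2.99 ± 0.14), Tbc1d15 (-3.44 ± 0.16) and Rab3gap2 (-2.53 ± 0.17). TRAPP subunits gave 6 rises and 4 falls of 14 (Trappc2 -2.86 ± 0.27, Trappc2l 3.78 ± 0.54, Trappc11 5.17 ± 0.85).

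With twin pairs in place of intact blastocysts, 37 of 53 members differed from 2-cell embryos, 12 higher and 25 lower, beside 12566 of 16523 genes, 5248 higher and 7318 lower. Rab13 (log2 0.29, adjusted p = 0.407 in edgeR's test) and Rab25 (1.03, adjusted p = 0.335) were then not called. Neither were Rab2a (0.05, adjusted p = 0.582) and Rab29 (0.14, adjusted p = 0.799), whose changes to intact blastocysts were -0.74 ± 0.11 and -1.31 ± 0.49.

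Promoters are shown for the 2 members with the largest falls and the 2 with the largest rises among those in the sequence table, which held 48 of the 59 members with 60 start sites (RefSeq, GRCm38.p6, from 250 bases before to 50 after the start, 5′ to 3′ on the gene's strand). Capitals mark the GC box, GGGCGG on either strand. Rab39 lies at chr9:53706183-53706482 on the minus strand, Rab3b at chr4:108878820-108879119 on the plus strand, Rab17 at chr1:90967618-90967917 on the minus strand and Rab6b at chr9:103111824-103112123 on the plus strand.
Rab39: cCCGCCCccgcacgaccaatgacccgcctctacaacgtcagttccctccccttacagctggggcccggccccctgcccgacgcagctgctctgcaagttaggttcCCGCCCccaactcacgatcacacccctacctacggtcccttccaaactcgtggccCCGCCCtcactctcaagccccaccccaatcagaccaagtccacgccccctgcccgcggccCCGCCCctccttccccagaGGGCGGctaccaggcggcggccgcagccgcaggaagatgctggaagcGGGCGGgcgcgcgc
Rab3b: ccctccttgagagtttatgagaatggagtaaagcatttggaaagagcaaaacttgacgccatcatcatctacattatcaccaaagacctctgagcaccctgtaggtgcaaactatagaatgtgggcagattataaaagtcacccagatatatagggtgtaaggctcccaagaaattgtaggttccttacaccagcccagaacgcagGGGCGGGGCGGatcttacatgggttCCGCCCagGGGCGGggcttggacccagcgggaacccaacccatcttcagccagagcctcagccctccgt
Rab17: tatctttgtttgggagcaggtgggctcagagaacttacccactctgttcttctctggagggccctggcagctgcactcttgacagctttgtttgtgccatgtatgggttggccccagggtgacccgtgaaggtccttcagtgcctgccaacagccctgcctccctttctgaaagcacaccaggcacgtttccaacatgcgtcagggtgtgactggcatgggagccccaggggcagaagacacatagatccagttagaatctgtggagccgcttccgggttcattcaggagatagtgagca
Rab6b: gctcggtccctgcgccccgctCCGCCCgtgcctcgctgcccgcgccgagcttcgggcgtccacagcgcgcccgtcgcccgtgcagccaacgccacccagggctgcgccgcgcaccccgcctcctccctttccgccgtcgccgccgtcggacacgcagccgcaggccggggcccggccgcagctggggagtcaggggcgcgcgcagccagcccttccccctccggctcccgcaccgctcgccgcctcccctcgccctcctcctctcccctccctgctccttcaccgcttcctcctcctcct
The Rab39 window holds 6 GC boxes, the Rab3b window 4, the Rab6b window 1 and the Rab17 window 0. A GC box was found in 68.3% of the 60 Rab starts and in 35.7% of all 32851 starts, and the median GC content was 61.2% and 52.7%. Among members that fell it was in 72.4% of 29 starts and among members that rose in 52.6% of 19. The AP-2 letters GCCNNNGGC were in 33.3% of Rab starts and 16.6% of all starts, the TEAD letters CATTCC in 11.7% and 14.7% and the TATA letters TATAAA in 6.67% and 13.6%. The E-box letters CANNTG were in 68.3% and 72.3%, and the CCAAT letters in 43.3% and 37.4%. Each was searched on both strands, and a match in letters is not a binding site.

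Paralogs were compared by their share of the group's summed TPM in each embryo, and the main copy of Rab8 differed between the stages. Rab8b held 75.7% ± 9.09 of Rab8 TPM at 2 cells (56.7% to 92.5%), 4.99% ± 2.39 in twins (0.928% to 9.11%) and 17.5% ± 14.98 in intact blastocysts (0% to 65.5%), so that 2-cell embryos and twins did not overlap. From 2-cell to intact embryos the log2 change of Rab8a was 1.05 ± 0.25 and that of Rab8b -3.03 ± 0.25, both called. Rab4a, Rab11a and Rab1a had the larger mean share in their groups at every stage. Rab4b went from 3.36% ± 3.74 of Rab4 TPM at 2 cells to 36.2% ± 5.74 in twins and 23.1% ± 19.1 in intact blastocysts. Rab11b went from 5.05% ± 2.65 of Rab11 TPM to 13.4% ± 2.86 and 10.7% ± 6.07, and Rab1b from 20.95% ± 14.2 of Rab1 TPM to 32.8% ± 6.93 and 24.1% ± 7.79, where the 2-cell and intact means differed by less than 1 SD.

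Rab2a held 92.9%, 98.8% and 96.6% of Rab2 TPM in 2-cell embryos, twins and intact blastocysts, Rab6a 99.8%, 94.4% and 93.1% of Rab6 TPM, and Rab5a 51.9%, 52.2% and 49.6% of Rab5 TPM. The Rab3 sum went from 249 ± 65.9 TPM at 2 cells to 14.2 ± 5.40 in twins and 14.7 ± 12.7 in intact blastocysts. Rab3d held 60.3% ± 10.8 of it at 2 cells, 39.1% ± 21.1 in twins and 56.97% ± 35.5 in the 27 intact blastocysts with any Rab3 count, and Rab3a held 11.7% ± 5.79, 45.5% ± 22.9 and 36.4% ± 38.1. The Rab27 sum went from 61.3 ± 23.4 to 9.78 ± 5.29 and 7.30 ± 6.37 TPM.

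**Figure D4:**
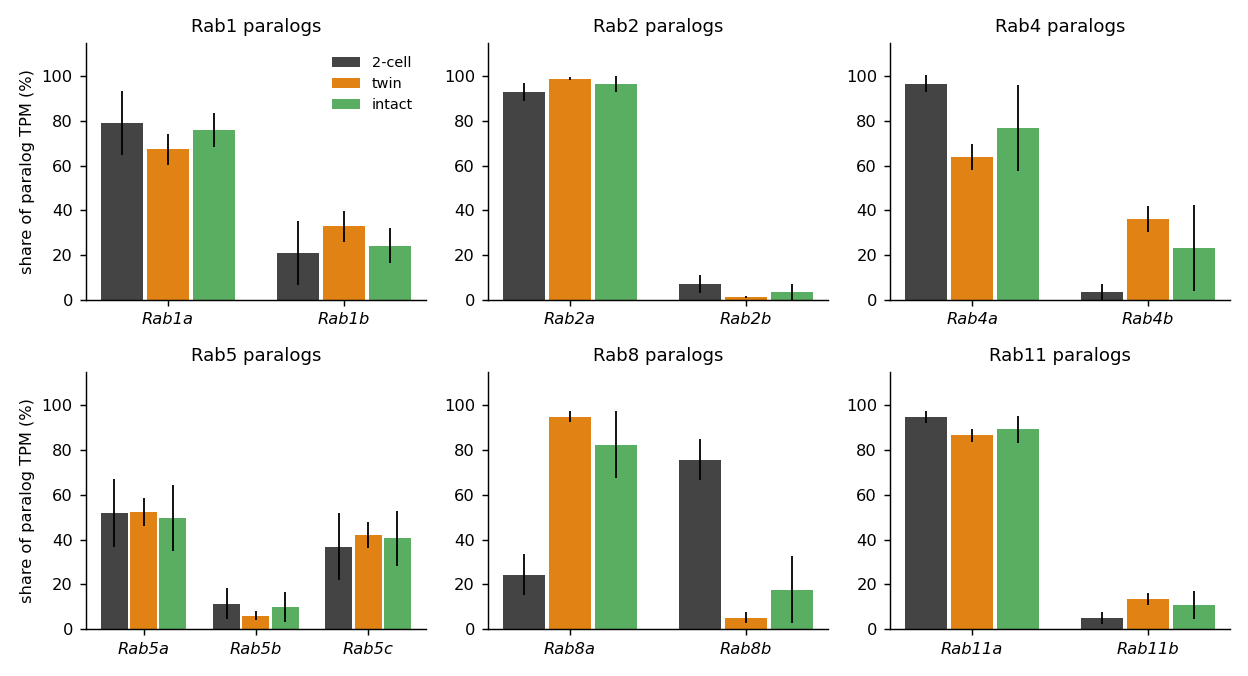
Bars give the mean share of each paralog in its group's summed TPM (%), and lines the SD, for 55 2-cell embryos, 19 twin pairs and 31 intact blastocysts (30 for Rab4). Rab8b has 75.7% at 2 cells and 4.99% in twins, while Rab2a is the major copy of its group at each stage.

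The fourth question was how blastocysts grown from single blastomeres compare with intact ones. Of 42 members tested 20 differed, 6 higher and 14 lower in twins, or 47.6% where 40.5% of all 10689 genes did (20.2% higher and 20.3% lower). By the rank-sum test on TPM the split was 10 and 10, and over all genes 3583 higher and 1811 lower. No member had ranges that did not overlap, and 0.253% (higher) and 0.14% (lower) of all genes did. Summed over lists, trophectoderm markers ran from 3183 to 3964 CPM in twins and from 3268 to 6897 in intact blastocysts, primitive endoderm markers from 353 to 916 and from 149.9 to 1244, epiblast markers from 132.4 to 423 and from 2.61 to 362, and oocyte markers from 330.2 to 683 and from 0 to 403. The part of these markers in the Rab differences was not tested.

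Members of epithelial traffic moved in both directions. Rab13 was lower in twins, at a median of 20.6 (6.32 to 47.9) CPM against 89.8 (46.2 to 317) in intact blastocysts (log2 -2.48 ± 0.23, adjusted p = 2.02e-13), and a single twin pair reached the intact range. Rab25 was lower too, at 6.26 (0.771 to 29.1) against 14.9 (0 to 156) CPM (-1.47 ± 0.43, adjusted p = 0.00425), with broad overlap. Rab17 was higher in twins, at 90.1 (48.6 to 190.3) against 18.4 (0 to 159.9) CPM (1.78 ± 0.35, adjusted p = 3.85e-05), and so was Rab8a, at 243 (186 to 301) against 125.3 (20.03 to 327) CPM (0.84 ± 0.16, adjusted p = 2.97e-05). Rab10 (-0.53 ± 0.12) and Rab8b (-1.08 ± 0.37) were lower. Of the 11 recycling and apical members 2 were thus higher and 4 lower.

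Of the secretory members, Rab2a was higher in twins, at 426 (361 to 503) against 247 (120.2 to 430.5) CPM (0.64 ± 0.10, adjusted p = 2.80e-07), and Rab1b by 0.42 ± 0.17 (adjusted p = 0.0368). Rab6a (-0.44 ± 0.13), Rab18 (-0.41 ± 0.15), Rab33b, a gene of Golgi and autophagy traffic (-0.81 ± 0.32), and Rab1a (-0.25 ± 0.10) were lower. Of 9 alternatives, Rab1a was called in 4 (adjusted p up to 0.147), Rab33b in 5 (up to 0.190) and Rab1b in 5 (up to 0.0943). In the endosomal lists Rab4b was higher, at 44.99 (35.2 to 66.4) against 18.9 (0 to 81.6) CPM (1.23 ± 0.29), and Rab29, at 35.2 (7.36 to 55.3) against 9.92 (0 to 98.2) CPM (1.28 ± 0.35). Rab31 (-1.196 ± 0.38), Rab5b (-0.85 ± 0.28), Rab21 (-0.63 ± 0.14), Rab9 (-0.45 ± 0.14) and Rab14 (-0.37 ± 0.09) were lower, as was Rab23, which acts in Hedgehog signalling (-0.75 ± 0.27). No regulated secretion member passed of 3 tested.

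Picked after their values were seen, the Rab11 effectors Rab11fip1, Rab11fip5 and Rab11fip4 were lower in twins (-1.53 ± 0.20, -1.04 ± 0.14 and -0.98 ± 0.14), among 2 higher and 7 lower of 28 effectors tested. Rab11fip1 had a median of 116.3 (44.99 to 201) CPM in twins and 277 (66.2 to 1109.8) in intact blastocysts. Beside the 40.5% of all genes called, TRAPP subunits gave 4 higher and none lower of 14, exchange factors 4 and 5 of 26, activating proteins 4 and 7 of 37, and delivery genes 0 and 3 of 8.

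A twin pair sums a pair of libraries, and intact blastocysts were the shallower single libraries. With only the first twin of each pair 17 members were called, beside 3797 of 10726 genes. With depth as a covariate as well, 11 members were called, 3 higher and 8 lower, beside 2298 of 10726 genes, 979 higher and 1319 lower. In edgeR's test the calls of Rab8a (log2 0.36, adjusted p = 0.142), Rab4b (log2 0.83, adjusted p = 0.100), Rab25 (log2 -1.23, adjusted p = 0.115) and Rab10 (log2 -0.32, adjusted p = 0.0863) were among those lost. Rab13 (-2.30), Rab17 (1.87) and Rab2a (0.41) passed. Against the 24 intact blastocysts with at least 10000 detected genes, an alternative chosen after the data were seen, 24 members differed (7 higher, 17 lower), beside 5214 of 10905 genes, 2563 higher and 2651 lower.

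**Figure D5:**
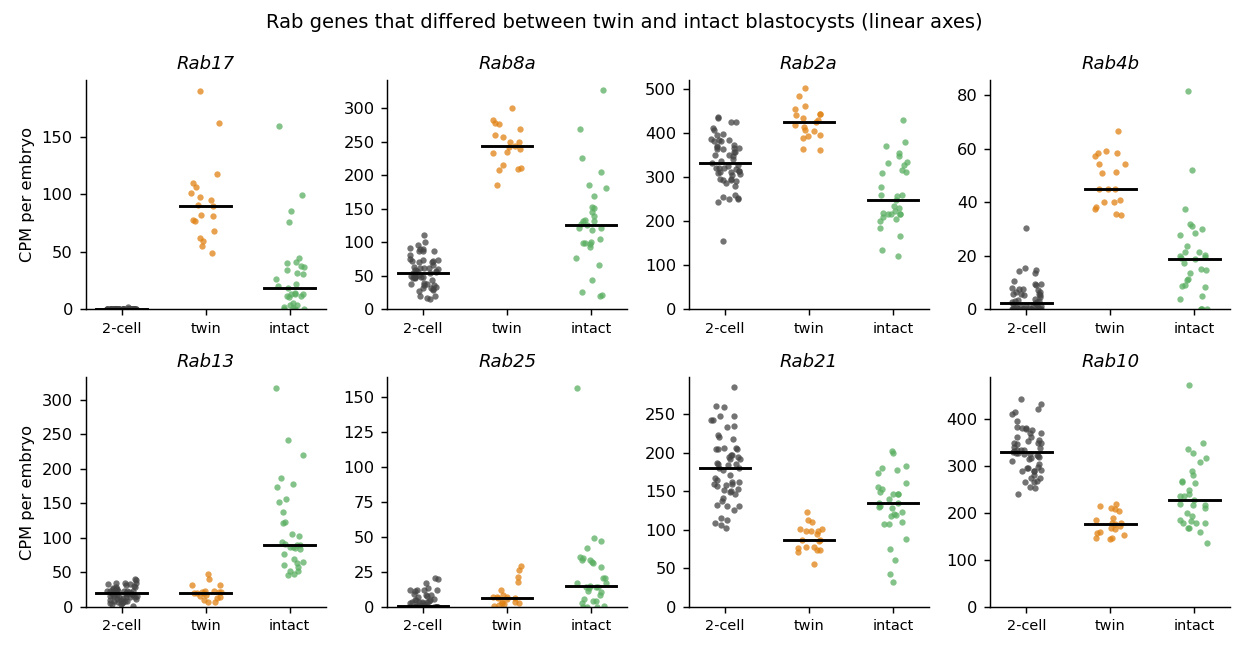
Each point is an embryo and each bar the group median, in CPM on linear axes, for Rab genes that differed between twin and intact blastocysts, with 2-cell embryos beside them. Rab13 has medians of 19.6 CPM in 2-cell embryos, 20.6 in twins and 89.8 in intact blastocysts, while Rab17 has a median of 0 at 2 cells and is highest in twins.

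The injection site was last compared within blastocysts. Between twin pairs of different sites 0 of 41 members passed in edgeR's test, and 0% of all 10995 genes. At an unadjusted p under 0.05 there were 4, 1 and 3 members for contralateral against equatorial, ipsilateral against equatorial and contralateral against ipsilateral. The shares of all genes under that limit were 6.62%, 3.87% and 6.86%. Between intact blastocysts 0 of 37 members passed and 0% of 9165 genes (1, 1 and 2 members unadjusted, beside 6.86%, 3.69% and 5.7% of all genes). DESeq2 called 0 members in these 6 contrasts. Rab11a, for which 2-cell embryos differed by site, had twin medians of 411 CPM in contralateral, 368 in ipsilateral and 348 in equatorial pairs, and intact medians of 404, 369 and 371 CPM. Those of Rab7 were 319.6, 327 and 325 CPM in twins and 256, 279 and 306 CPM in intact blastocysts. The twin-against-intact change itself did not pass a test of difference between sites for any of 42 members (0% of all genes). Unadjusted, 1 member was under 0.05, Rab1b with p = 0.0236 in edgeR's test of the interaction, beside 2.3% of all genes.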

How the data were processed

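The deposited values are whole-number counts per gene for 125 single blastomeres and 69 blastocysts. The authors made these counts from SMART-Seq single-cell libraries without molecular identifiers, with Trimmomatic, FastQC 0.12.1 and STAR 2.7.10b on GRCm38 and GENCODE M23, per the labels and the study's methods. Reads of the first plate were cut to 100 bases and counting ignored strand. Blastomeres with fewer than 9500 detected genes (7) and their sisters were left out, and blastocysts needed 4000.

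Counts were added over sisters or twins and tested in edgeR 4.0.16 (quasi-likelihood, TMM, filterByExpr, Benjamini-Hochberg over all genes, threshold 0.05). Plate was a term at 2 cells, ICSI site for twin against intact, and both for the stage comparison. In the stage comparison all blastocysts were set to the second plate, so the stage term compares them with the 13 2-cell embryos of that plate. Their column names give no plate, and the paper places them in its dataset 2. CPM and TPM were computed here from the counts, TPM with GENCODE M21 exonic lengths. The sister distance is the absolute difference of log2(CPM + 1), tested with limma 3.58.1. Alternatives used DESeq2 1.42.0, rank-sum tests on TPM, other scalings, filters, covariates and samples. The edgeR, rank-sum and limma tests and the formula of the dispersion index were tried on simulated data, and the other steps were not. P-values measure the spread between embryos, which may share females.

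The members and gene lists were chosen with earlier results of these data known. Named were the members that passed between sites at 2 cells (or the 3 of smallest p), the 12 of largest fold in each direction by stage and for twins, the 5 of highest TPM, the 3 highest and lowest dispersion indices, the paralog groups, members at 0, and the 3 regulators of smallest p per list, of which 1 is not reported here. Beyond the 12, values were also given for Rab14, Rab7, Rab9, Rab2a and Rab29 by stage and for Rab1a and Rab14 in twins. Work was done in R 4.3.3 and Python 3.11.15.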

Additional observations from a re-analysis of the deposited data

Results flagged for a closer look

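A single embryo lay far from the others of its group, by Dixon's gap at the 95% level in groups of 4 to 10 embryos, for 22 of 148 combinations of group and gene (14.9%), where chance gives about 1 in 20 for bell-shaped values. Many of these genes are near 0, where a single count is enough to set an embryo apart. In intact ipsilateral blastocysts Rab15 at 99.2 CPM (others 33.9 to 40.6), Rab19 at 6.97 CPM (others 0 to 1.202) and Rab24 at 103 CPM (others 46.3 to 66.6) stood apart. The same group held Rab34 at 8.42 CPM (others 0 to 3.43), Rab39 at 1.75 CPM (others at 0) and Rab3c at 1.75 CPM (others at 0). The Rab39 and Rab3c values are from the same embryo.

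In contralateral twin pairs Rab10 at 208 CPM (others 167 to 179), Rab13 at 47.9 CPM (others 6.32 to 21.2) and Rab25 at 17.9 CPM (others 0.771 to 5.95) stood apart. The same group held Rab31 at 38.6 CPM (others 8.92 to 11.9), Rab39 at 5.01 CPM (others 0 to 0.413) and Rab3d at 24.1 CPM (others 1.86 to 8.27). In equatorial twin pairs Rab18 at 140.0 CPM (others 169 to 185, low), Rab19 at 0.506 CPM (others at 0) and Rab38 at 0.417 CPM (others 3.68 to 4.999, low) stood apart. In ipsilateral twin pairs Rab18 at 196 CPM (others 152 to 168), Rab23 at 33.7 CPM (others 11.3 to 20.3) and Rab25 at 20.99 CPM (others 2.94 to 8.17) stood apart. The same group held Rab31 at 26.8 CPM (others 2.36 to 10.1), Rab38 at 16.8 CPM (others 0 to 6.64) and Rab39 at 12.7 CPM (others 0 to 4.62). Last in that group was Rab5b at 24.5 CPM (others 9.24 to 13.4). The Rab13 value is the twin pair that reached the range of intact blastocysts.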

How the results depend on the processing

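Of the counts and levels recomputed under the alternatives, 60 stayed within 1.5 times or 1 SD of the reported value and 8 did not. The ipsilateral against equatorial count went from 5 to 0 with depth and detected genes as covariates and to 8 with plate 1 alone. The contralateral against ipsilateral count went from 0 to 1 with every gene with a count (1577 of 24964 genes in all), and the twin against intact count from 20 to 11 with twin a alone and depth as a covariate. The summed level without the 3 members of highest CPM in each group was 3363, 3135 and 3091 CPM in 2-cell embryos, twins and intact blastocysts. These sums are lower by construction, and the twin level was 4063 in TPM. The cause of the other shifts was not tested. Of the values of the members taken by the naming rule, at most 12 in each direction, 492 kept direction and call, 29 kept direction and lost the call, and none reversed. Rab1a and Rab14 of the twin comparison are not among these values, nor are stage members beyond the 12 in each direction. Of those stage members, Rab2a and Rab29 fell in intact blastocysts but changed direction with twin pairs in their place (log2 0.05 and 0.14, not called). The alternative of intact blastocysts with at least 10000 detected genes was chosen after seeing the data. No paired analysis was possible because embryo numbers are not shared between groups. Single embryos were not left out in turn, since every group held more than 5. Depth limits the sparse members such as Rab3c, Rab19 and Rab25, and the intact blastocysts most.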
